A study of Mus musculus with 8 samples.

Results

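At embryonic day 14.5 (E14.5), 749 of 8381 forelimb cells from one sorted library (8.94%, exact 95% interval 8.33 to 9.57%) had at least 1 transcript of 3 or more of the 5 genes *Mia*, *Otor*, *Six2*, *Cytl1* and *Matn4*, and these cells are called the members here. A transcript was counted as a unique molecular identifier (UMI), and the 8381 cells were the barcodes, of 9189 deposited, with at least 3000 UMIs and at most 10% mitochondrial UMIs. The series held 53085 such cells in 8 single cell RNA sequencing libraries of mouse embryonic forelimb. It followed cells labelled through *Hic1*, a gene marking mesenchymal progenitors of the limb. The members were compared with the other 7632 cells of the same library.

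The embryos were C57BL/6J of the genotype Hic1CreERT2/CreERT2;Rosa26LSLtdTomato/tdTomato, and dams were gavaged with 7.5 mg tamoxifen at embryonic day 10, so that cells then using the *Hic1* promoter, and their descendants, carried tdTomato. That dose was shared by all 8 libraries, and the study's methods give the same alleles, CreERT2 at *Hic1* and the tdTomato reporter, for the whole-limb embryos. The 6 sorted libraries came from whole forelimbs of 4 stages from E11.5 to E14.5 and, at E16.5, from a proximal segment around the elbow and a distal segment of the lower forearm and paw. The 2 whole-limb libraries of E11.5 held cells with and without tdTomato. Forelimb pairs of several embryos were pooled in each library, and each sorted condition was 1 library. No test between conditions was therefore possible, and every interval given covers counting error only. In the E14.5 library a tdTomato UMI was detected in 96.8% of members, 97.1% of other cells and 87.5% of the 64 cells marked as epithelial, while *Hic1* itself was counted at 10.2 CPM (UMIs of a gene per 1e6 UMIs of the cells) in members and 29.3 in other cells. Members had a median of 15043 UMIs per cell (4062 to 50733) and other cells 14268.5 (3013 to 60127). The median mitochondrial share was 2.94% and 3.11%. Between 0 and 23 of the 8381 barcodes were shared with each of the other libraries.

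Limb cartilage and tendon arise from neighbouring mesenchyme. SOX9, with SOX5 and SOX6, drives the genes of cartilage matrix, while SCX marks tendon progenitors and tenomodulin (*Tnmd*) the maturing tendon; progenitors with both SOX9 and SCX are known from the sites where tendon attaches to cartilage. Of the genes in the rule, *Mia* and *Otor* encode small secreted proteins of 1 family that are known from cartilage and, for *Otor*, from the inner ear. *Six2* encodes a homeodomain transcription factor of limb and kidney mesenchyme, *Cytl1* a secreted protein of cartilage, and *Matn4* a matrilin of the extracellular matrix.

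The stretch of 250 bases before the RefSeq start is shown for *Otor*, *Six2* and *Cytl1* (RefSeq, build GRCm38.p6, each on the strand of its gene). *Six2* was taken as the transcription factor of the rule. *Otor* and *Cytl1* were taken because their shares among the cells meeting the rule ran in opposite directions from E12.5 to E16.5. Over all cells at 3000 UMIs, both were detected in a larger share at E13.5 than at E12.5. Capitals mark the letters ACAAT or ATTGT, the core bound by SOX proteins searched on both strands, and TATAAA, searched on the strand of the gene. *Otor* (chr2:143078143-143078392, plus strand) held TATAAA at -35 from the RefSeq start, *Six2* (chr17:85688255-85688504, minus strand) held ATTGT at -126, and *Cytl1* (chr5:37735269-37735518, plus strand) held no match. The RefSeq starts of *Otor* and *Six2* differ from the GENCODE gene starts that follow, with that of *Otor* further upstream and that of *Six2* further downstream, so these positions apply to the RefSeq starts.
Otor: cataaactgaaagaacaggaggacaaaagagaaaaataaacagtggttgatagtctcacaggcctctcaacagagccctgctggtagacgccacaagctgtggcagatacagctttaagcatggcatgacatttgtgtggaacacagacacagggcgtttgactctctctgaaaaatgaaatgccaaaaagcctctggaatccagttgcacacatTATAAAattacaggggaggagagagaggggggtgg
Six2: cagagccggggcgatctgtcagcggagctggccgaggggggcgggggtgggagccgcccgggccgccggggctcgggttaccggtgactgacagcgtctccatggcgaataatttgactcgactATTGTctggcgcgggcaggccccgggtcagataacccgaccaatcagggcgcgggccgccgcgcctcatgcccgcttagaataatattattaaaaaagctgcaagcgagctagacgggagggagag
Cytl1: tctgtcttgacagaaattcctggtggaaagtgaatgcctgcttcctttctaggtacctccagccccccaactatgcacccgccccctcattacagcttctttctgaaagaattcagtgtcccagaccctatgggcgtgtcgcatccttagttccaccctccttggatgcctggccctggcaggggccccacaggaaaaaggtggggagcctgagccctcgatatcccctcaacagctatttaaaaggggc
Over all 32851 stretches of the same length, 27.7% held ACAAT or its reverse and 7.59% held TATAAA. Of the 191 genes outside the rule that were at least 2-fold higher in members (with the rule genes 196 of 8449 tested, 2.32%), 140 had a sequence, of which 21 (15%) held ACAAT and 10 (7.14%) TATAAA, and of 198 lower genes with a sequence 31 (15.7%) and 16 (8.08%). The shares were 16.8% and 3.68% of the 6528 tested genes with a sequence, so TATAAA was not more frequent among higher than among lower genes. A match of letters is a description and not a binding site.

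The 5 genes of the rule lie apart in the genome (GRCm38, GENCODE genes). *Otor* (chr2:143078473-143081713, plus strand), *Cytl1* (chr5:37735519-37739820, plus strand) and *Six2* (chr17:85684277-85688274, minus strand) overlapped no other annotated gene. *Mia* (chr7:27179742-27181157, minus strand) overlapped a readthrough gene on the same strand, *Gm21983*, with which reads may be shared, and the nearer edge of its neighbour *Rab4b*, also on the minus strand, lay 845 bases away. *Matn4* (chr2:164389393-164405160, minus strand) overlapped *Rbpjl* on the other strand. The longest exact match between transcripts was 11 bases for *Mia* and *Otor* and 18 for *Matn1* and *Matn4*.

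The values of the rule genes chose the members and are given as a description. *Matn4* was detected in 96.4% of members (per cell 0 to 187 UMIs, median 21) and *Mia* in 87.7% (0 to 59, median 5). *Six2* was detected in 84.6% (0 to 26, median 3), *Otor* in 60.3% (0 to 28, median 1) and *Cytl1* in 48.5% (0 to 79, median 0). In other cells these shares were 19.5%, 8.57%, 10.5%, 6.26% and 1.06% in the same order. As a measure of free RNA, 64 cells with UMIs of at least 3 of 8 epithelial genes at 3000 UMIs, a type that should lack the rule genes, had a UMI of *Matn4* in 15.6%, of *Six2* in 9.38%, of *Mia* in 3.12%, of *Otor* in 1.56% and of *Cytl1* in 0 of 64, at a median of 22077.5 UMIs. At 3000 UMIs per cell *Matn4* was detected in 78.1% of members, 8.14% of other cells and 3.12% of epithelial cells (0.381 to 10.8%), and *Six2* in 38.7, 3.67 and 1.56% (0.0396 to 8.40%), so that the shares in other cells lay within the counting intervals of the epithelial cells and those in members above them. Other cells were not alike in this: in the 795 with the tendon mark defined below, *Six2* was detected in 11.1% (8.97 to 13.5%), above the epithelial interval. *Matn4* was detected in 10.8% of these tendon-marked cells (8.74 to 13.2%). Summed over cells, the epithelial cells had 7.54 CPM of *Matn4* and 4.80 of *Six2*, and the tendon-marked other cells 56.3 and 45.1. In the same sums *Cytl1* stood at 297 CPM in members and 0.693 in other cells, *Matn4* at 1545 and 46.1, *Mia* at 456 and 15.1, *Six2* at 193 and 15, and *Otor* at 131 and 8.07.

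Whether the members carried cartilage and tendon transcripts was asked after each cell had been thinned to 3000 UMIs. A cell was marked for cartilage by UMIs of at least 3 of 10 cartilage genes and for tendon by at least 3 of 8 tendon genes, none of them in the rule. The cartilage mark was carried by 312 members (41.7%, 38.1 to 45.3%) and by 17 other cells (0.223%, 0.130 to 0.356%). The tendon mark was carried by 64 members (8.54%, 6.64 to 10.8%) and by 795 other cells (10.4%, 9.74 to 11.1%). Both marks were found in 8 members (1.07%), and 381 members (50.9%) carried neither at this depth. At full depth the cartilage mark was carried by 63.4% of members (59.9 to 66.9%) and 1.81% of other cells, and the tendon mark by 42.2% of members (38.6 to 45.8%) and 29.1% of other cells (28.1 to 30.1%). Both marks were then found in 23.6% of members (20.6 to 26.8%) and in 0.747% of other cells (0.566 to 0.967%). The share with the cartilage mark was thus higher in members at either depth. That with the tendon mark overlapped the share in other cells at 3000 UMIs and was above it at full depth. With the rule itself applied at 3000 UMIs, 4.68% of members carried the tendon mark (2.70 to 7.49%). Summed over cells, the 8 tendon genes stood at 624 CPM in members and 777 in other cells. Of these genes 1, *Fmod*, was at least 2-fold higher in members and 4 were at least 2-fold lower. The members are described by their rule genes.

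The factors that mark the early cartilage and tendon lineages were each detected in a larger share of members than of other cells. At 3000 UMIs, *Sox9* was detected in 68.1% of members (64.6 to 71.4%) and 16% of other cells (15.1 to 16.8%), and *Scx* in 26.4% (23.3 to 29.7%) and 16.4% (15.5 to 17.2%). *Sox9* and *Scx* were detected in the same cell in 130 members (17.4%, 14.7 to 20.3%), in 3.38% of other cells (2.99 to 3.81%) and in 11.4% of the 795 tendon-marked other cells (9.32 to 13.9%). The product of the separate shares was 18.0% in members, 2.61% in other cells and 11.1% in tendon-marked cells, so that the joint share in members was no higher than the separate shares give. The share of members with both was 17.9% without the cells of the 5% highest doublet scores. The scoring called 0 of 8381 cells a doublet and had not worked, so this share is no check on doublets. In the epithelial cells *Sox9* was detected in 18.8% and *Scx* in 0 of 64 at 3000 UMIs, the latter allowing up to 4.69%. The share of *Sox9* in other cells was therefore no higher than in a cell type outside the mesenchyme, in which *Sox9* may also be expressed.

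Members were not uniform, and the number of rule genes in a cell moved with its cartilage transcripts. By the number of rule genes from 0 to 5, 4850, 2060, 722, 345, 227 and 177 cells were counted, with medians of 13961.5 to 15580 UMIs. The share of cells with the cartilage mark was 0, 0.0485, 2.22, 20.9, 49.8 and 71.8%, and that with *Sox9* was 11.9, 19.2, 33.8, 58.0, 71.4 and 83.6%. *Tnmd* ran otherwise, with shares of 7.96, 18.2, 25.3, 22.6, 15 and 7.34%, and the tendon mark likewise with 7.09, 15, 19.5, 12.2, 7.49 and 2.82%. Cells just outside the rule, with 2 genes, thus had the highest shares of *Tnmd* and of the tendon mark, whereas *Fmod* stood at 90.6 CPM in them and at 113, 104 and 156 CPM with 3, 4 and 5 genes. Across the threshold, from 2 to 3 rule genes, *Col2a1* stood at 331 and 1532 CPM, *Sox9* at 201 and 499, *Matn1* at 16.2 and 278, *Scx* at 204 and 169, and *Tnmd* at 496 and 375.

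**Figure D1:**
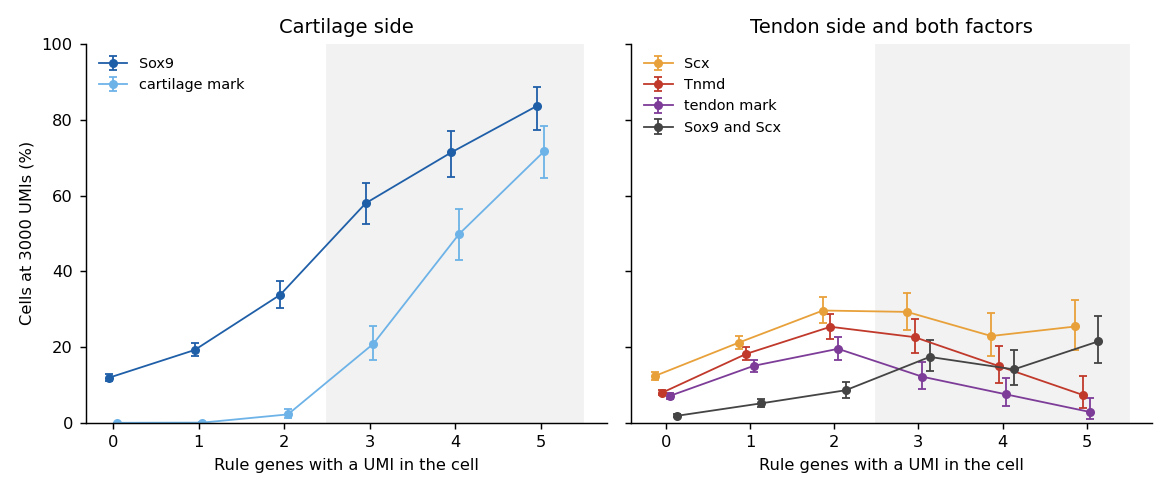
Shares of E14.5 cells with a UMI or a mark, in percent after thinning to 3000 UMIs, against the number of the 5 rule genes detected in the cell; bars are exact 95% binomial intervals and the shaded range holds the members. *Sox9* and the cartilage mark were highest at 5 genes, with 83.6% and 71.8% of cells, whereas *Tnmd* and the tendon mark were highest at 2 genes, with 25.3% and 19.5%.

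Cartilage matrix and tendon transcripts also varied with the combination of rule genes in a cell. The largest combination was all 5 genes, in 177 members, with *Col2a1* at 5449 CPM, *Matn1* at 1261 and *Tnmd* at 40.3. *Mia*, *Six2*, *Cytl1* and *Matn4* without *Otor* were found in 89 members, with *Col2a1* at 5779, *Matn1* at 1726 and *Tnmd* at 31.4 CPM. Both combinations held *Cytl1*, but the 10 members with only *Six2*, *Cytl1* and *Matn4* had *Col2a1* at 1422 and *Tnmd* at 410.4 CPM. *Mia*, *Six2* and *Matn4* alone were found in 152 members, with *Col2a1* at 1964, *Matn1* at 482 and *Tnmd* at 327 CPM. *Otor*, *Six2* and *Matn4* without *Mia* and *Cytl1* were found in 66 members, with *Col2a1* at 494, *Matn1* at 3.42 and *Tnmd* at 569 CPM. The 22 members with only *Mia*, *Otor* and *Six2* had *Col2a1* at 445, *Matn1* at 2.68 and *Tnmd* at 961 CPM. In the last 2 combinations *Scx* was at 194 and 287 CPM, but *Fmod* was at 99.2 and 85.9 CPM beside 156 in the members with all 5 genes. The 15 combinations, of which the smallest held 1 cell, were described after their values had been seen.

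**Figure D2:**
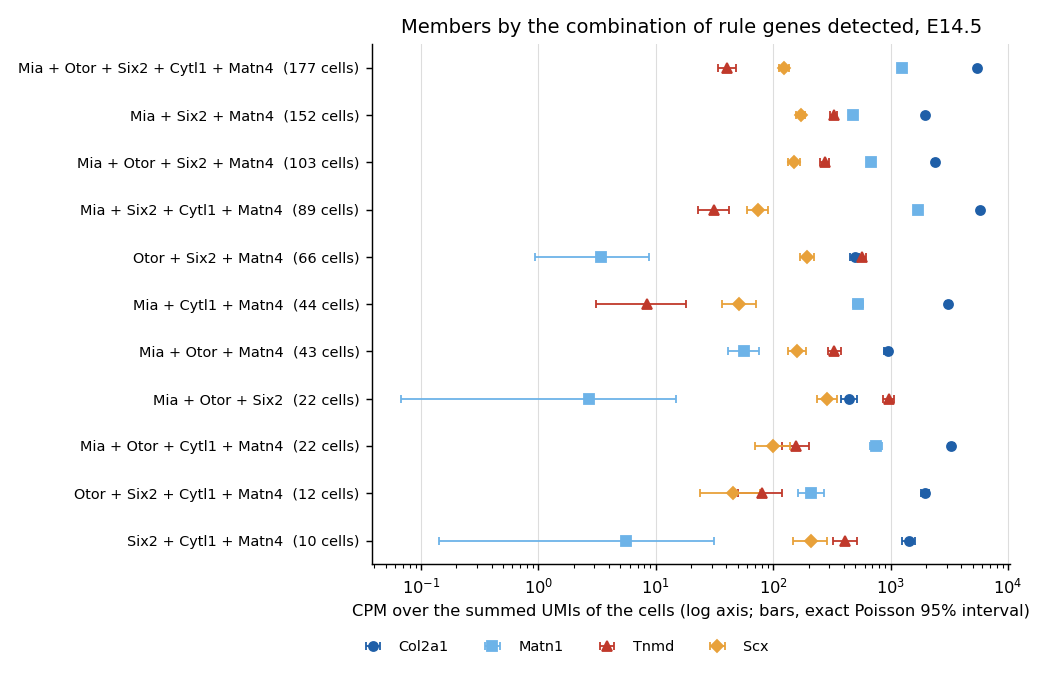
Summed expression in CPM (log axis) of cartilage and tendon genes in members grouped by the combination of rule genes detected; points are the value over all cells of a combination and bars exact 95% Poisson intervals. The 177 cells with all 5 genes have 5449 CPM of *Col2a1* against 40.3 CPM of *Tnmd*, and the 66 cells with *Otor*, *Six2* and *Matn4* have 494 CPM of *Col2a1* against 569 CPM of *Tnmd*.

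A split by *Cytl1*, also made after the values had been seen, compared 363 members with a UMI of it with 386 without, at medians of 15023 and 15051 UMIs. Of 8305 genes tested, those with at least 10 CPM in the higher group, 75 (0.903%) were at least 2-fold higher and 88 (1.06%) at least 2-fold lower in members with *Cytl1*, on the scale of log2(CPM + 1) used for all ratios below. Members with *Cytl1* had more *Matn3*, a matrilin of cartilage (58.8 against 10.0 CPM, log2 ratio 2.44), *Chad*, encoding the cartilage protein chondroadherin (53.2 against 9.40, 2.38), *Hapln1*, the link protein that holds aggrecan to hyaluronan (313 against 73.4, 2.08), and *Comp* (77.9 against 19.7, 1.93). *Col2a1* stood at 4724 and 1611 CPM, *Matn1* at 1132 and 375, and *Sox9* at 776 and 450. Because *Cytl1* is a rule gene, this split also followed the number of rule genes, with all 177 members that held 5 in the group with it, and *Cytl1*, *Mia* and *Matn4* were among the 75 genes. The values describe the members and support nothing further. Of the 18 measured cartilage matrix genes 14 were at least 2-fold higher with *Cytl1*. Members without *Cytl1* had more *Tnmd* (393 against 56.7 CPM, -2.77), the growth factor gene *Igf1* (350 against 105, -1.72), the fibrillar-associated collagen *Col14a1* (64.6 against 19.99, -1.64) and the homeobox gene *Meox1* (50.2 against 15.4, -1.64). *Scx* stood at 103 CPM with and 175 without, and *Fmod*, encoding a small proteoglycan of tendon and cartilage, at 123 and 118.

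Against all other E14.5 cells, 196 of 8449 tested genes (2.32%) were at least 2-fold higher in members and 294 (3.48%) at least 2-fold lower. The median log2 ratio of all tested genes was -0.00407. Among the regulators of cartilage, *Sox9* stood at 607 CPM in members and 74.2 in other cells (log2 ratio 3.02), *Sox5* at 124 and 11.6 (3.31) and *Sox6* at 86.2 and 9.55 (3.05). *Wwp2*, a ubiquitin ligase gene whose locus also carries a cartilage microRNA, stood at 146 and 9.57 CPM (3.8), and the growth plate receptor *Fgfr3* at 30.1 and 2.21 (3.27). Of the 8 measured regulators of 11 listed, 7 were at least 2-fold higher, with a median log2 ratio of 3.16. The cells with most *Sox9* reached 66 UMIs among members (median 7) and 56 among other cells (median 0).

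Cartilage matrix genes were higher in members as a group. All 18 measured genes of 20 listed were at least 2-fold higher, with a median log2 ratio of 4.53, and the unmeasured *Ucma* and *Vit* stood at 4.71 and 0.863 CPM in members. *Matn1*, cartilage matrilin, was at 740.1 CPM in members and 2.89 in other cells (7.57), with 0 to 248 UMIs per member and a UMI in 44.3% of members against 2.35% of other cells. The aggrecan gene *Acan* was at 197 and 3.51 CPM (5.46), and *Hapln1* at 189 and 3.41 (5.43). *Col2a1*, the main collagen of cartilage, was at 3113 and 85.4 CPM (5.17) and was detected in 97.1% of members, with a median of 32 UMIs per cell and up to 468. The collagen IX genes that coat its fibrils followed, *Col9a3* with 1452 and 33.8 CPM (5.38), *Col9a1* with 526 and 21.3 (4.57) and *Col9a2* with 702 and 58.8 (3.55). *Col11a2* stood at 165 and 4.80 CPM (4.84), *Epyc*, a proteoglycan of growth cartilage, at 80.0 and 4.56 (3.86), and *Lect1*, chondromodulin, at 700.3 and 30.2 (4.49). *Susd5* was at 59.3 and 0.355 CPM (5.48). Outside the list, the sulphate donor enzyme *Papss2* was at 66.7 and 6.75 CPM (3.13). The galectin gene *Lgals3* was at 69.3 and 1.42 CPM (4.86). The median member had 0 UMIs of *Matn1*, so this ratio was carried by a part of the members.

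Genes of later cartilage and of bone were low. Of 14 listed, 3 reached 10 CPM in either group and none of these passed 2-fold. *Ihh*, the hedgehog ligand of prehypertrophic cartilage, had 43 UMIs over all members (3.37 CPM), *Col10a1*, the collagen of hypertrophic cartilage, 25 UMIs (1.96 CPM), and the bone regulator *Sp7* 13 UMIs (1.02 CPM). *Runx2*, which acts in both, was at 20.7 CPM in members and 11 in other cells (0.85), and *Pth1r*, the receptor for parathyroid hormone-related protein, at 66.8 and 117 (-0.80).

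**Figure D3:**
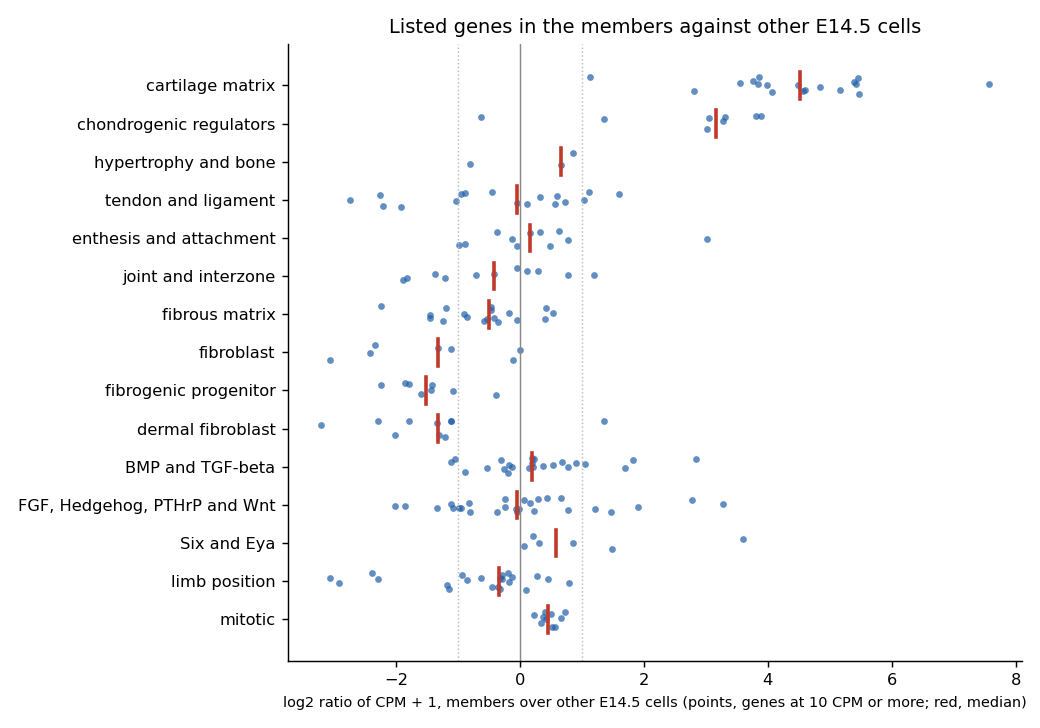
Log2 ratio of CPM + 1 in members over other E14.5 cells for the genes of each list that reached 10 CPM in either group; each point is a gene and the red line the median of the list. Cartilage matrix (median 4.53) and chondrogenic regulators (3.16) lie to the right, tendon and ligament genes centre near 0 (-0.06), and fibroblast, fibrogenic progenitor and dermal lists lie to the left.

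Tendon and ligament genes lay on both sides of equality. Of the 17 measured of 18 listed, 3 were at least 2-fold higher and 5 at least 2-fold lower in members, with a median log2 ratio of -0.06. *Scx* stood at 140 CPM in members and 112 in other cells (0.32), *Tnmd* at 230.4 and 214 (0.10), and *Mkx*, a tendon homeobox factor, at 35.2 and 23.0 (0.59). *Tnmd* had 0 to 186 UMIs per member, with a median of 0. The higher genes were *Fmod* (121 and 39.1 CPM, 1.60), *Tnc*, the matrix protein tenascin-C (132 and 60.5, 1.11), and the water channel *Aqp1* (31.3 and 14.8, 1.03). The lower genes included the proteoglycan keratocan, *Kera* (29.5 and 141 CPM, -2.22), *Thbs4*, a thrombospondin of tendon (22.1 and 86.7, -1.92), *Htra3*, a serine protease (32.5 and 67.7, -1.04), and *Chodl* (12.9 and 93.0, -2.75).

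Joint and attachment genes were mixed. *Erg*, a factor of articular cartilage, was at 21.7 CPM in members and 8.99 in other cells (1.19), the 1 higher gene among 11 measured joint genes of 17. *Gdf5*, the ligand that marks the joint interzone, was at 14 and 7.75 CPM (0.78), and *Prg4*, which encodes lubricin, had 11 UMIs over all members. *Osr2* (13.6 and 52.8, -1.88), *Cd44* (4.71 and 19.3, -1.83), *Tppp3* (7.85 and 22, -1.38) and *Creb5* (37.4 and 88.1, -1.21) were lower. Of 11 measured attachment genes of 13, *Sox9* was higher and none was lower, with *Gli1*, a hedgehog target known from tendon attachments, at 11.5 and 15.2 CPM (-0.38).

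Among relatives of the rule genes, the cartilage matrilin *Matn3* was at 33.6 CPM in members and 0.429 in other cells (4.60), while *Matn2*, a matrilin of fibrous tissue, was at 15.8 and 32.6 (-1.002). *Six4* was at 21.1 and 11.2 CPM (0.86), and its cofactor *Eya2* at 28.6 and 23.1 (0.30). The other MIA-family genes, which act in secretion from the endoplasmic reticulum, were near equal, *Ctage5* at 112 and 101 CPM (0.15) and *Mia3* at 47.8 and 55.8 (-0.22).

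Genes of signalling pathways lay on both sides. Among BMP and TGF-beta genes, 4 of 23 measured were at least 2-fold higher and 2 lower. The ligand genes *Bmp5* (54.4 and 6.76 CPM, 2.83), *Gdf10* (99.1 and 29.7, 1.70) and *Bmp2* (57.6 and 27.5, 1.04) were higher together with *Nog*, which encodes the BMP antagonist noggin (71.6 and 19.6, 1.82). *Grem1*, another BMP antagonist, was lower (12.3 and 26.6, -1.05), as was the coreceptor *Tgfbr3* (12.8 and 28.8, -1.11). Among 27 measured FGF, hedgehog, PTHrP and Wnt genes, 5 were higher and 5 lower. The receptors *Fgfr3* and *Fgfr2* (59.2 and 15, 1.91) and the secreted Wnt inhibitors *Frzb* (77.2 and 10.4, 2.77) and *Wif1* (180.4 and 64.4, 1.47) were higher, as was *Fzd9*, a Wnt receptor outside the list (90.5 and 2.20, 4.84). The Wnt ligands *Wnt11* (10.3 and 44.9, -2.02) and *Wnt5a* (70.3 and 150, -1.08), the inhibitor *Dkk2* (45.4 and 167, -1.86) and the Wnt targets *Axin2* (12 and 31.8, -1.34) and *Lef1* (5.88 and 13.9, -1.11) were lower. Wnt inhibitors were thus found on both sides.

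The genes lower in members included those of connective tissue fibroblasts and of position in the limb. *Dcn*, the proteoglycan decorin, was at 201 CPM in members and 951 in other cells (-2.24), and *Lum* at 222 and 610 (-1.46). Of 18 fibrous matrix genes none was higher and 5 were lower, and *Col1a1* was at 2206 and 2831 CPM (-0.36). *Mfap5* (4.16 and 42.1, -3.06), *Dpt* (2.98 and 20.4, -2.42) and *Cd34* (5.41 and 31.4, -2.34) were among 5 lower of 7 measured fibroblast genes. All 8 fibrogenic progenitor genes were measured and 7 were lower, among them *Osr1* (33.1 and 117, -1.79) and *Hic1* (-1.44). Of 10 measured dermal genes 9 were lower, and *Trps1*, which is also a cartilage regulator, was higher (238 and 91.9, 1.36). Among the 10 lower genes taken by size of ratio from those with at least 50 CPM, *Nrgn* (4.79 and 62.7, -3.46), *Hspb1* (7.45 and 55.8, -2.75), *Nrp1*, a semaphorin receptor (17.4 and 109, -2.57), and *Zeb2* (11.7 and 71.2, -2.51) stood with *Chodl*, *Arhgdib*, *Bcl11b*, *Tmem132c*, *Dcn* and *Celf2*.

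Of 28 listed genes of limb position, 6 were lower. *Irx3* (1.33 and 18.6 CPM, -3.07), *Irx5* (5.41 and 47.8, -2.93), *Pax1* (1.88 and 14, -2.38) and *En1* (3.53 and 21.3, -2.30) were lower, as were the digit genes *Hoxd13* (26.5 and 61.5, -1.18) and *Hoxa13* (7.38 and 17.5, -1.14). The other 16 of 22 measured genes stayed within 2-fold, among them *Hoxa10* (179 and 168, 0.10), *Hoxd11* (69.4 and 85.7, -0.30) and *Tbx5* (93.0 and 67.7, 0.45). No position gene was at least 2-fold higher.

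Markers of other cell types were low. *Krt14* and *Krt5*, keratins of epidermis, had 2 and 4 UMIs over all members, and the muscle genes *Myod1*, *Myf5*, *Pax7* and *Myog* had none. Of 14 endothelial, blood and glial genes 7 were at 0 in members, and the summed level of the list was 33.3 CPM in members and 29.2 in other cells. Within it *Sox10*, a factor of glia that is also known from cartilage, had 43 UMIs over all members and 3 over other cells. The part of glial RNA in the ratios above was not tested. In the pericyte list *Cspg4*, which cartilage also uses, was higher (45.2 and 8.34, 2.31) and *Acta2* lower (1.73 and 31.4, -3.57). All 10 mitotic genes were measured and lay above 0 and under 2-fold (median 0.46), and 17.0% of members carried a mitotic mark (14.3 to 19.8%) against 12.6% of other cells. The cluster led by mitotic genes had a median of 22135 UMIs per cell, and the mitotic share of members was 10.8% when the rule itself was applied at 3000 UMIs.

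The cells were also clustered without the 5 rule genes, on 1989 variable genes, which gave 22 clusters, of which 18 held a member. One cluster of 297 cells held 289 members (97.3% of its cells), led by *Matn1*, *Hapln1*, *Lgals3*, *Cytl1* and *Susd5*. A second, of 493 cells led by *Vwc2*, *Matn4*, *Six2*, *Foxc1* and *Otor*, held 198 members (40.2%), and 9.13% of its cells carried the cartilage mark and 8.72% the tendon mark. A cluster led by mitotic genes held 134 members among 833 cells. These 3 clusters held 621 members (82.9%). A further 32 members lay in a cluster of 519 cells led by *Tnmd* and *C1qtnf3*. Members differed from other cells within clusters as well: in the second cluster *Col2a1* was at 1709 CPM in members and 409 in other cells, and *Sox9* at 483 and 215, while in the *Tnmd* cluster *Tnmd* was at 2260 and 1713 CPM and *Col2a1* at 529 and 195, but *Scx* at 218 and 474. The clusters were formed from the same cells, and these values are a description.

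Compared with the 795 tendon-marked other cells alone, 220 of 8317 tested genes (2.65%) were at least 2-fold higher in members and 211 (2.54%) lower. *Matn1* was at 1.32 CPM in tendon-marked cells (log2 ratio 8.32), *Col9a1* at 8.51 (5.79) and *Acan* at 4.82 (5.09). *Sox9* was at 60.4 CPM there (3.31). The ligand gene *Gdf10* was at 6.40 CPM in tendon-marked cells (3.76), *Frzb* at 4.29 (3.89), *Fgfr2* at 3.89 (3.62) and *Nog* at 9.10 (2.84), so that these ratios were larger than against all other cells. *Thbs4* (408 CPM in tendon-marked cells, -4.15), *Kera* (421, -3.79) and *Tnmd* (1363, -2.56) were lower in members, but these genes had chosen the tendon-marked cells. Outside the marking genes, *Col13a1*, a membrane collagen (7.61 and 82.8 CPM, -3.28), *Spon2* (5.81 and 60.8, -3.18) and *Postn*, encoding periostin (144 and 706, -2.29), were lower. *Tnc* was at 102 CPM in tendon-marked cells (0.36) and, among the marking genes, *Fmod* at 209 (-0.79).

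The 17 cartilage-marked cells that were not members were too few for a comparison across genes, since 10 CPM was 2.17 UMIs over them, and 754 genes (8.75%) and 679 genes (7.88%) lay past 2-fold in the higher and lower direction. With the mark called at full depth, an alternative chosen after seeing the data, 138 other cells carried it, and 97 genes (1.15%) were higher and 144 (1.71%) lower in members. *Matn1* was at 740.1 CPM in members and 67.4 in these cells (3.44), *Col9a3* at 1452 and 278 (2.38), *Col2a1* at 3113 and 696 (2.16), *Bmp5* at 54.4 and 10.4 (2.28) and *Frzb* at 77.2 and 16.8 (2.14). The 138 cells were limited to those with fewer than 3 rule genes, which are themselves genes of cartilage, so these values are a description. The 138 cells had more *Kera* (29.5 in members and 93.9, -1.64), *Htra3* (32.5 and 95.7, -1.53) and *Crabp1*, a retinoic acid binding protein (233 and 664, -1.51).

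The same rule was applied to the other libraries at 3000 UMIs per cell. At E11.5 it was met by 0 of 3165 sorted cells (at most 0.0948% by the limit of 3 counts), and in the whole-limb libraries by 0.0183% and by 0 of 5682 cells (at most 0.0528%). It was met by 0.424% of E12.5 cells (0.259 to 0.654%), 2.99% of E13.5 cells (2.58 to 3.45%), 4.08% of E14.5 cells (3.67 to 4.53%), 4.79% in the proximal E16.5 library (4.40 to 5.2%) and 1.83% in the distal E16.5 library (1.56 to 2.14%). The proximal and E14.5 intervals overlapped, and the distal share was below both. At full depth, from E12.5 on, the shares were 1.97, 7.99, 8.94, 9.52 and 4.05%. An earlier version of the library kit had been used for sorted cells up to E13.5, and cells up to E12.5 were dissociated with other enzymes than later ones. Stage and dissociation therefore cannot be told apart between E12.5 and E13.5, nor stage and kit between E13.5 and E14.5.

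**Figure D4:**
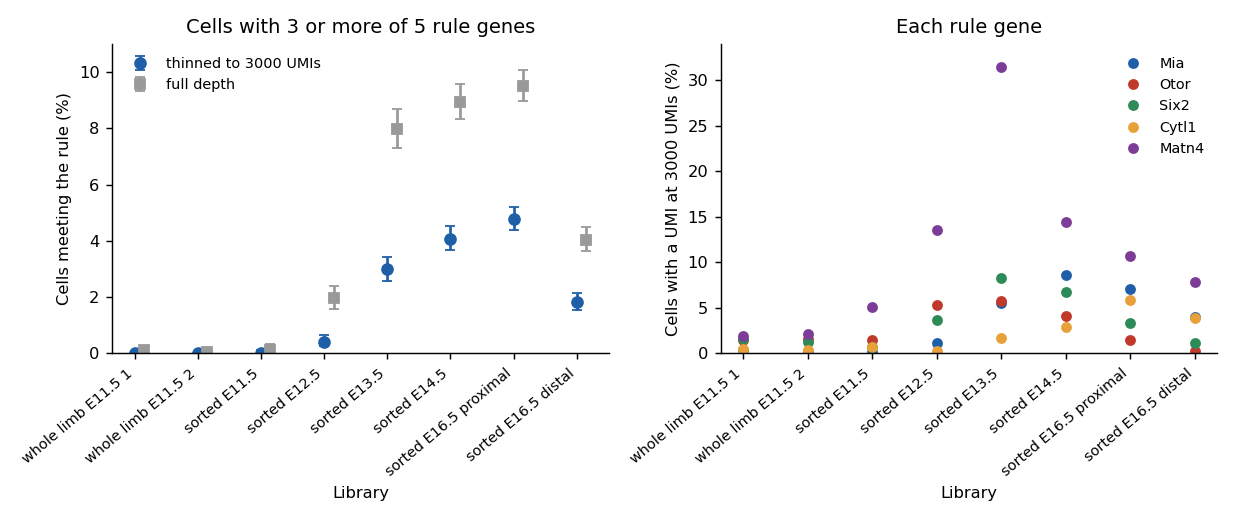
Left, percent of cells meeting the rule in each library after thinning to 3000 UMIs (circles) and at full depth (squares), with exact 95% binomial intervals; right, percent of cells with a UMI of each rule gene at 3000 UMIs. The share meeting the rule was 0 of 3165 cells in the sorted E11.5 library, 4.08% at E14.5 and 4.79% in the proximal E16.5 library.

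The make-up of the cells meeting the rule differed by library. *Otor* was detected, at full depth, in 76.3% of the 93 such cells at E12.5, 64.2% of 489 at E13.5, 60.3% of members at E14.5, and 31.0% of 1058 and 10.8% of 342 in the proximal and distal E16.5 libraries. *Cytl1* ran the other way, with 22.6, 24.7, 48.5, 81.2 and 96.8%, as did *Mia* with 32.3, 64.2, 87.7, 97.0 and 96.5%. These shares are tied to each other, since every such cell holds at least 3 of the 5 genes, and the median depth of the cells was 8851, 7165, 15043, 18323.5 and 17882.5 UMIs. Over all cells at 3000 UMIs, *Mia* was detected in 1.12, 5.57, 8.59, 7.06 and 3.99%, *Otor* in 5.35, 5.72, 4.16, 1.46 and 0.272%, and *Cytl1* in 0.255, 1.65, 2.89, 5.86 and 3.94%. *Six2* was detected in 82.8, 78.5, 84.6 and 73.2%, and in 19.6% of the distal cells. At 3000 UMIs the cartilage mark was carried by 7.53, 44.0 and 41.7% of such cells from E12.5 to E14.5, 88.6% in the proximal and 74.9% in the distal library, and *Sox9* with *Scx* by 32.3, 20.4, 17.4, 12.9 and 3.51%. In the other cells of those libraries *Sox9* with *Scx* was detected in 11.9, 11.04, 3.38, 0.98 and 1.33%, so this share was lower at later stages outside the rule too. Cells of the rule at E12.5 seldom carried the cartilage mark, although *Col2a1* stood there at 848 CPM against 178 in other cells. *Tnmd* was lower with than without *Cytl1* in the proximal E16.5 library (154 and 362 CPM) and in the distal one (86.1 and 659, the latter over 11 cells), while the counting intervals overlapped at E13.5 (2 and 26 UMIs). The cartilage genes did not all repeat the E14.5 contrast, with *Matn1* at 5333 and 5363 CPM in the proximal E16.5 library and *Sox9* at 591 and 737 at E12.5.

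The genes at least 2-fold higher at E14.5, the 191 outside the rule, were looked up in the other sorted libraries, each with its own cells of the rule and its own other cells. Of those measured, 76 of 134 were again at least 2-fold higher at E12.5, 118 of 161 a day later, 152 of 180 in the proximal and 148 of 180 in the distal E16.5 library, where 2.43, 2.57, 5.88 and 5.53% of all tested genes were higher. Of the 294 lower genes, 101 of 193, 155 of 205, 215 of 244 and 218 of 263 were again lower, beside 4.61, 3.88, 10.5 and 8.20% of all tested genes. All 20 of the largest higher genes passed 2-fold at E13.5, but 7 of the 10 named lower genes did at E12.5 and 7 at E13.5. At E13.5 the others were *Bcl11b* (0.27), *Nrgn* (-0.27) and *Hspb1* (-0.91). *Epyc* (-1.67) and *Lgals3* (-0.07) did not at E12.5, *Lgals3* (0.47) did not in the proximal and *Vwc2* (0.55) did not in the distal E16.5 library. These ratios of named genes were taken without the limit of 10 CPM. Among others, *Epyc* and *Lgals3* at E12.5 and *Lgals3* at E13.5 (3.06 and 0.386 CPM) did not reach that limit in either group. *Lgals3* was at 584 CPM in the proximal members and at 421 in other cells of that library. The paper removed contaminating epithelial cells from the E16.5 data, whereas here such cells stayed among the other cells. Their part in the E16.5 ratios was not tested. *Gdf5* differed in sign and size by library, with log2 ratios of -1.24, 0.54, 0.78, 4.98 and 1.56 from E12.5 to the distal E16.5 library, and stood at 55.9 CPM in the proximal E16.5 cells of the rule against 0.806 in the other cells.

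**Figure D5:**
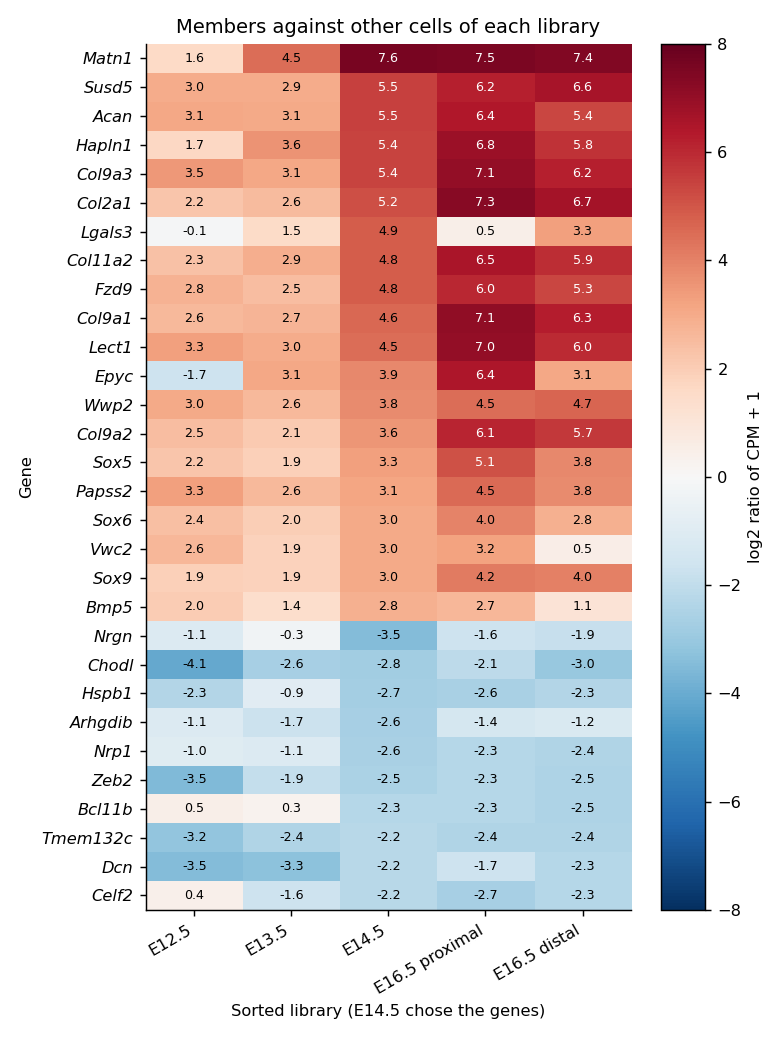
Log2 ratio of CPM + 1, cells meeting the rule over other cells, for the 20 higher and 10 lower genes named at E14.5 (rows) in 5 sorted libraries (columns). The 20 higher genes are positive in every library other than E12.5, where *Epyc* (-1.67) and *Lgals3* (-0.07) are not.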

How the data were processed

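Cells were sorted for tdTomato and against endothelial and blood surface markers, and the whole-limb libraries were not sorted for tdTomato. The UMI counts per gene and cell were deposited as made by the authors with Cell Ranger (per the labels 6.0.1 for the distal E16.5 library and 3.0.2 for the other sorted libraries, while the paper names another single version for all single cell data) on a modified mm10 genome, with no normalization. Cells with at least 3000 UMIs and at most 10% mitochondrial UMIs were kept. Counts were summed over the cells of a group and given as CPM. Ratios were log2 of CPM + 1, a gene was tested for size if it reached 10 CPM in the higher group, and a ratio of at least 2-fold was called. Named genes were the 20 highest and 10 lowest called genes with at least 50 CPM, 8 in each direction for other contrasts, and the listed genes. The ratio and its 2-fold call were tested on simulated sums of counts, without variation between cells, and the thinning was checked for its depth. The rule, the marks and the clusters were not simulated. Shares have exact binomial and sums exact Poisson 95% intervals, and a count of 0 allowed up to 3 counts. Clusters were made with scanpy 1.11.5 and leidenalg 0.10.2. Doublet scores were from Scrublet. The members and the 25 lists were chosen with earlier results of these data known. The 2 whole-limb libraries were replicates with no stated separate origin. Alternatives varied the rule, filters, depth, pseudocount, marks and clustering.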

Additional observations from a re-analysis of the deposited data

Results flagged for a closer look

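*Epyc* stood apart because its ratio passed 2-fold in one direction in one library and in the other direction at E14.5. Its log2 ratio of CPM + 1, cells meeting the rule over other cells, was -1.67 at E12.5, where 2 UMIs were counted in the 93 cells meeting the rule (2.27 CPM) and 407 in the other cells (9.39 CPM). The ratio was 3.12 at E13.5, 3.86 at E14.5, 6.44 in the proximal and 3.11 in the distal E16.5 library. Neither group reached the 10 CPM needed for a call at E12.5, so the ratio there was not a called one. With 1 library per stage, the difference was not tested, and 2 UMIs give a wide counting error. *Lgals3* (-0.07, on 0 and 2 UMIs) among the higher genes, and *Bcl11b* (0.48) and *Celf2* (0.44) among the lower genes, were also of the opposite sign at E12.5, within 2-fold, as was *Bcl11b* at E13.5 (0.27).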

How the results depend on the processing

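Of 206 shares and counts of genes recomputed under an alternative, 125 stayed within the margin set for them and 81 moved past it. The margin was 1.5 times for a count of genes and the counting interval for a share. Of 992 gene ratios (62 ratios of a gene in 1 contrast, under 16 settings) none changed sign. These were among the largest ratios of their contrasts, for which a change of sign is least likely. The 1 that came below 2-fold was *Ly6h* by *Cytl1* (-0.85), with *Six2* left out of the rule. With every cell thinned to 3000 UMIs before the rule, 4.08% of E14.5 cells were members, 67.5% of them with the cartilage mark, 4.68% with the tendon mark and 10.8% mitotic. With at least 4 rule genes the members were 4.82% (cartilage mark 59.4%, tendon mark 5.45%), and with at least 2 they were 17.6% (22.3%, 13.9%, *Sox9* with *Scx* 13.1%). With 3 of 4 rule genes they were 5.77% without *Mia* (cartilage mark 50.2%), 7.30% without *Otor* (50%), 5.93% without *Six2* (53.5%, tendon mark 5.84%), 8.20% without *Cytl1* and 5.13% without *Matn4* (55.8%, tendon mark 6.05%). With 2 calling genes sufficient for a mark, the cartilage and tendon marks were carried by 54.9% and 23.8%.

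Counts of genes past 2-fold against other cells were 511 lower under the thinned rule, 118 higher and 125 lower with at least 2 rule genes, 193 lower with a pseudocount of 5 CPM, and 82 higher and 92 lower with at least 50 CPM. Against tendon-marked cells the lower genes numbered 422 under the thinned rule, 343 with at least 4 and 86 with at least 2 rule genes and 138 with a pseudocount of 5 CPM, and 81 were higher and 80 lower with at least 50 CPM. Against cartilage-marked other cells (17 in the result given, 1 to 138 by setting) the higher and lower genes were 38 and 59 under the thinned rule, 124 and 110 with at least 4 and 4354 and 1816 with at least 2 rule genes, 154 and 123 without *Mia*, 449 and 388 without *Otor*, 238 and 154 without *Six2*, 320 and 260 without *Cytl1*, 132 and 101 without *Matn4*, 457 and 427 with a pseudocount of 5 CPM, 90 and 151 with at least 50 CPM, 2070 and 1886 with cells thinned, 116 and 159 with 2 calling genes, and 97 and 144 with the mark called at full depth.

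Without thinning, the rule was met by 0.126, 1.97 and 7.99% of cells in the first 3 sorted stages, 9.52% in the proximal and 4.05% in the distal E16.5 library and 0.110% in the first whole-limb library. With at least 2 rule genes these were 0.348, 3.46, 13.4, 8.52 and 4.08%, with 0.311 and 0.299% in the whole-limb libraries. The shares of E14.5 genes called again were then 62.1% of lower genes at E12.5, 82.8% of higher and 83.6% of lower genes at E13.5 and 90.9% of higher genes in the proximal E16.5 library. Clusters of mostly members held 63.8% of members at resolution 0.5 and 50.3% at 2, against 38.6% at 1. The cause of these shifts was not tested. A higher minimum of UMIs per cell, a lower mitochondrial limit, removal of the cells with most UMIs and means over cells moved none of the values at E14.5 past these margins, with genes lower than in cartilage-marked cells at 1012 without the cells of most UMIs and 819 with means, beside 679, and genes lower than in all other cells at 342 and 354, beside 294.

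Scrublet called 0 of 8381 cells and had not worked, so its removal of doublets was not run. Removal of the 5% highest scores (418 cells, 62 of them members), removal of mitotic cells and the full-depth cartilage mark were chosen after seeing the data, and the first 2 moved no value past the margins, with genes lower than in cartilage-marked cells at 1003 and 993, beside 679. The highest scores were held by 8.28% of members and 4.66% of other cells. No paired analysis was possible because each sorted condition was 1 library and no test was made. Depth limits the rule: a transcript not counted in a cell may still be present, and the 17 cartilage-marked cells held too few UMIs for single genes.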
